A study of Mus musculus with 4 samples.

Results

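Promoter bins with one-sided contacts are 5-kb stretches of the genome that hold the start of a protein-coding gene and whose contacts run almost entirely to one side. They were found in a list of H3K4me3 HiChIP interactions of mouse bone marrow-derived macrophages (BMDMs). A promoter bin held at least 1 protein-coding transcription start site (TSS) of the GENCODE M21 basic annotation. Only protein-coding genes were used throughout. A partner called intergenic lay outside those genes, and other kinds of gene were not looked at. Members were chosen by the readout itself, as promoter bins with 20 or more significant interactions of which at least 90% had the partner bin on the same side, at lower or at higher coordinates. There were 524 such bins among 2696 promoter bins with 20 or more interactions, or 19.4%. This share is fixed by the rule and was not tested. The remaining 2172 bins are called other promoter bins below.

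HiChIP ligates DNA ends that lie close together in the nucleus and then enriches the fragments that carry a chosen mark, here H3K4me3, which sits on active promoters. The cells came from C57BL/6J mice, were grown from bone marrow for 7 days with M-CSF, and were either treated for 24 h with IL-4 at 20 ng/mL, which drives alternative activation of macrophages, or left basal, with 2 biological replicates of each. The deposited values are 1 list of 237102 interactions in which the authors pooled the reads of the 4 samples. IL-4-treated and basal cells therefore cannot be told apart, values carry no error between replicates, and how deeply each sample was read is not known. Each interaction has an observed count of read pairs, an expected count from the authors' model, and their ratio. Of 36 macrophage identity genes 10 had a bin with 20 or more interactions, against 2 of 22 T and B cell genes. Of all 20720 annotated autosomal protein-coding genes, 14.9% had one. Housekeeping genes had 11 of 30, transcription factors of immediate response and growth 24 of 56, and IL-4-responsive genes 3 of 37. The interaction list itself holds no expression values.

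A promoter meets distant enhancers by folding of the chromatin fibre. The cohesin ring extrudes loops of DNA and is halted by CTCF, a zinc-finger protein that binds a directional motif. Where 2 CTCF sites hold the ends of a loop, their motifs usually point towards each other, into the loop. A motif near a promoter therefore has a side to which it points, which can be set beside the side on which that promoter's partners lie.

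In the one-sided bins the CTCF consensus pointed mostly to the contacted side. The consensus has 12 positions and was searched on both strands, and a match on the plus strand was taken to point to higher coordinates. A match lay in 6.87% of the one-sided bins (36 bins) and in 4.33% of the other promoter bins (94 bins). One lay in 4.02% of all autosomal promoter bins of the annotation and in 2.40% of all autosomal 5-kb bins. Matches are letters in the sequence, and binding of CTCF was not measured. Of 35 one-sided bins with matches in 1 orientation only, 31 had them pointing to the contacted side (88.6%, 95% Wilson interval 74.0 to 95.5%, which covers counting error only). The remaining 4 pointed to the other side. Averaged over the 17 chromosomes that held such a bin, the share was 40.2 percentage points above an even split (SD 18.7), above it on 15 chromosomes and below it on none (sign-flip permutation test over chromosomes, two-sided, p = 5e-05, adjusted p = 0.00017). Among the 20 bins with partners downstream of the gene 19 faced the contacted side, as did 11 of the 13 with partners upstream. The stricter class, with all partners on 1 side, held 15 oriented bins and did not pass (27.1 points, permutation p = 0.13, adjusted p = 0.19).

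The sequences below are 30-base windows of GRCm38 around these matches, written 5′ to 3′ on the strand named, with the 12 bases of the match in capitals, and positions are those of the match. Cebpb is shown as a gene of macrophage identity. Its product C/EBPβ is a transcription factor of macrophages and fat cells. Klf3, Lpin3 and Lrch1, chosen after their values were seen, are shown with a second match, because their contacted-side partner with the highest ratio held a match pointing back at the promoter.
Cebpb promoter bin, chr2:167688669-167688680, plus strand: ccgcgtcctCCAGCAGGGGGCgggcggcgg
Klf3 promoter bin, chr5:64813668-64813679, minus strand: taaagagaaCCAGTAGGTGGCgcacgaaaa
Klf3 partner bin, chr5:64382626-64382637, plus strand: ccagatattCCAGCAGGTGGCactcttgct
Lpin3 promoter bin, chr2:160887460-160887471, minus strand: taccacgggCCAGCAGAGGGCagatggtga
Lpin3 partner bin, chr2:160598023-160598034, plus strand: aacttatggCCAGCAGGTGGCggtgcaggc
Lrch1 promoter bin, chr14:74949025-74949036, minus strand: ggcggcacaCCACTAGGTGGCgcctgtttc
Lrch1 partner bin, chr14:74764338-74764349, plus strand: taagcagatCCACCAGGTGGCgctctaaca

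The match of Cebpb lay 241 bp from a TSS and pointed to higher coordinates, where all 27 of its partners lay. Klf3 encodes a Krüppel-like transcription factor and had 43 partners in this bin, all at lower coordinates. Its match pointed the same way, and the partner 430 kb away with the returning match had a ratio of 14.98. All 22 partners of Lpin3, which encodes a phosphatidate phosphatase, lay at lower coordinates, and the partner with the returning match was 290 kb away with a ratio of 9.15. Lrch1 encodes a leucine-rich repeat protein. It had 23 of 25 partners at lower coordinates, and the partner with the returning match was 185 kb away with a ratio of 5.32.

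The 4 bins that went the other way are shown as the exceptions, and were likewise chosen after their values were seen.
Erlin2 promoter bin, chr8:27020809-27020820, plus strand: ctgtggtagCCAGCAGAGGGCatcaaagct
Rps19bp1 promoter bin, chr15:80260879-80260890, minus strand: cacgagcgaCCAGCAGGTGGCagtgcaaaa
Rhbdd2 promoter bin, chr5:135630803-135630814, minus strand: taacacctaCCACTAGGGGGCagcaggggt
Kctd21 and Usp35 promoter bin, chr7:97332171-97332182, plus strand: cggggcgggCCAGTAGGGGGCtggctctcc
Erlin2, which encodes an endoplasmic reticulum membrane protein, had all 42 partners at lower coordinates while its match pointed to higher ones. Rps19bp1 had all 28 and Rhbdd2 all 26 partners at higher coordinates while their matches pointed to lower ones. The bin shared by Kctd21 and Usp35 had 24 of 25 partners at lower coordinates.

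In the adjoining windows of one-sided bins more matches pointed to the contacted side than away. This held on the contacted side and also on the side with few or no partners. In the 25 kb beyond the bin on that side, one-sided bins had a total of 101 matches pointing to the contacted side and 60 pointing away. The other promoter bins had 251 and 273 in the same window on the side with fewer partners. At least 1 match pointing to the contacted side was found there in 96 one-sided bins (18.3%) and in 216 other promoter bins (9.94%). Per bin, matches pointing to the contacted side minus those pointing away came to 0.0782 in one-sided bins and -0.0101 in other promoter bins. The difference averaged 0.102 per bin over 19 chromosomes (SD 0.138), with 14 chromosomes higher and 4 lower (permutation p = 0.0028, adjusted p = 0.0065). It did not pass the permutation test with a minimum of 30 interactions (adjusted p = 0.079), with every partner on 1 side (adjusted p = 0.19) or at a ratio of at least 4 (adjusted p = 0.15). In each window farther out on that side, up to 200 kb, one-sided bins had more matches pointing away. They had 67 pointing to the contacted side and 71 away from 25 to 50 kb, and 27 and 68 from 125 to 150 kb. Other promoter bins likewise had more pointing away in each of these windows, with 244 and 290, and 222 and 257, in the same 2. The 25-kb window was chosen after the profile of the same matches was seen, so the test is not independent of it. Taken with the bin itself, 122 one-sided bins (23.3%) had such a match, against 12.7% of other promoter bins. In the adjoining 25 kb on the contacted side, one-sided bins had 67 matches pointing to that side and 32 away. Other promoter bins had 311 and 189 there, on the side with more partners. These counts on the contacted side were not tested.

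**Figure D1:**
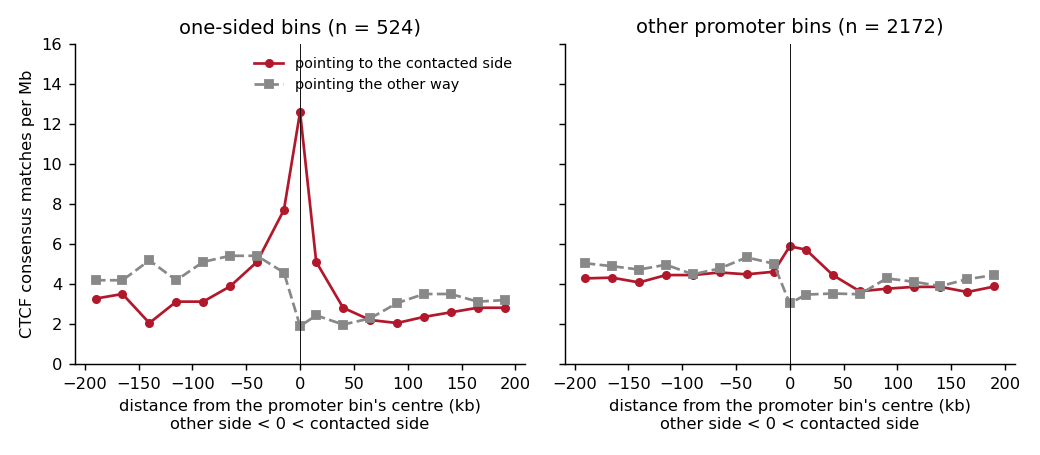
CTCF consensus matches per Mb against distance from the promoter bin's centre in kb, in the bin and in 25-kb windows, for 524 one-sided bins (left) and 2172 other promoter bins (right). Red circles are matches that point to the contacted side and grey squares those that point the other way. Within one-sided bins the densities are 12.6 and 1.91 per Mb, within other promoter bins 5.89 and 3.04 per Mb.

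Other promoter bins were tested in the same way on the partners' side, which for them was not set at 90%. In 93 such bins with matches in 1 orientation, 56.0% of partners on average lay on the side to which the match pointed (SD 20.1). The share was above 50% in 61 bins and below it in 30 (mean over 19 chromosomes 6.41 points above even, SD 10.7, permutation p = 0.018, adjusted p = 0.037). The value depended on the limit that separates these bins from the one-sided ones. It was 1.8 points where bins of 80% or more were set apart (permutation test, adjusted p = 0.61) and 13.2 points where only bins of 100% were (adjusted p = 0.00055), and the call was lost in 5 of 11 alternatives. Partner bins were looked at from their own side as well. Of partner bins with matches in 1 orientation, 64.6% in one-sided bins and 61.3% in other promoter bins pointed back at the promoter. The difference did not pass (1.79 points over 19 chromosomes, SD 9.04, permutation p = 0.39, adjusted p = 0.48).

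By the rule's own measure, 265 of the 524 bins had their partners at lower and 259 at higher coordinates, and 144 (27.5%) had every partner on 1 side. They had a median of 30 interactions, quartiles 23 and 40, against 31, quartiles 25 and 44, in other promoter bins. Weighted by read pairs instead of by partner bins, 150 of the 524 had under 90% of their counts on the contacted side and 20 had under 70%. Together the members took part in 18653 interaction ends, of which 768 (4.12%) lay on the side opposite to the main one. Partners on the contacted side had a median distance of 235 kb, a median ratio of 3.35 and a median observed count of 33, against 125 kb, 2.68 and 43 on the opposite side. The partners on the opposite side were nearer and had higher counts. Just inside the threshold stood Ggct with 45 of 50 partners on 1 side, Gpr107 with 36 of 40 and Ube2m with 27 of 30. Kdm1a with 44 of 49 and Aldh4a1 with 35 of 39 stood just outside it.

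**Figure D2:**
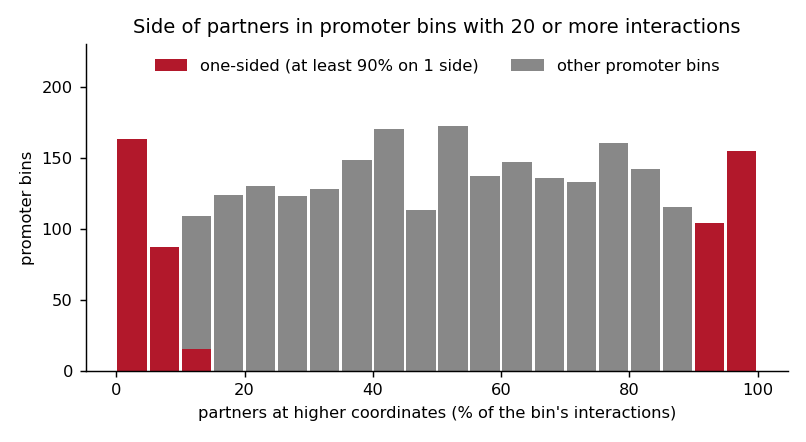
Number of promoter bins with 20 or more interactions against the share of their partners at higher coordinates, in percent, in steps of 5. Red bars are the 524 one-sided bins and grey bars the 2172 other promoter bins. The step from 10 to 15% holds 15 one-sided bins at exactly 10%. The outermost steps hold 163 and 155 bins, and the bins between them spread over the whole range without a gap at the threshold.

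The one-sided bins with the most interactions were led by genes for transcription factors and growth regulators. Jun, which encodes a subunit of the AP-1 transcription factor, had 189 interactions, the most of any member (bin at chr4:95050001-95055000, gene on the minus strand). Of these, 181 ran to higher coordinates, upstream of the gene, over a median of 465 kb, and the median ratio was 7.08. Its strongest interaction by ratio reached an intron of Fggy 820 kb away, with 102 observed against 2.64 expected read pairs, a ratio of 38.6. On that side the nearest TSS of another gene was that of Fggy, 503 kb away, whereas Mysm1 started 70.9 kb away on the other side. The 8 partners on that other side lay 10 to 65 kb away. Counted by read pairs instead of partner bins, 89.5% lay on the contacted side.

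Cited2 encodes a transcriptional co-regulator and had 177 interactions (chr10:17720001-17725000, plus strand), 171 of them upstream. Among its partners 96.6% were intergenic, no other protein-coding gene started within 2 Mb on that side, and the highest ratio was 21.4 at 500 kb. Bcl6, a repressor that opposes inflammatory gene expression in macrophages, shared its bin (chr16:23985001-23990000) with Gm37419, whose TSS lies on the opposite strand. All 171 partners of this bin lay at higher coordinates, 59.1% of them in introns, and the strongest was in an intron of Lpp at 635 kb, with 175 observed against 6.06 expected read pairs. Zfp703, a zinc-finger repressor, had 149 of 152 partners upstream (chr8:26975001-26980000, plus strand), of which the strongest was intergenic at 285 kb with a ratio of 22.3. Its contacted side held no other gene start within 500 kb and its other side held 13.

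Plk2 encodes a polo-like kinase and was the leading bin with every partner downstream (chr13:110395001-110400000, plus strand). All 155 partners lay at higher coordinates, 99.4% of them intergenic, and the highest ratio was 32.8 at 840 kb. The gene itself is 5.80 kb long, so these partners lay beyond its end. Pdgfc, a platelet-derived growth factor, had 130 of 138 partners downstream, 22.5% of all its partners within the gene of 178 kb. Msi2, an RNA-binding protein, had 104 of 107 downstream with 57.9% in its own gene of 379 kb. Zfp36l1, which encodes an mRNA-decay factor, had 102 of 103 downstream.

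Id2, an inhibitor of helix-loop-helix transcription factors, had all 120 partners upstream and all of them intergenic. The other 3 of the 12 leading bins also contacted upstream sequence, Nmd3 with 96 of 100 partners, Msrb2 with 98 of 100 and Zfp503 with 94 of 97. Nmd3 had 80.7% of its read pairs on that side. Of the 12, 7 contacted upstream, 4 downstream, and the bin of Bcl6 holds TSSs on both strands. Grk5, a kinase of G protein-coupled receptors, joined Jun, Plk2, Bcl6 and Zfp703 among the 5 highest ratios. Its strongest partner, 200 kb downstream in exonic sequence of Grk5 and Zfp950, had 326 observed against 11.3 expected read pairs, a ratio of 28.9.

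**Figure D3:**
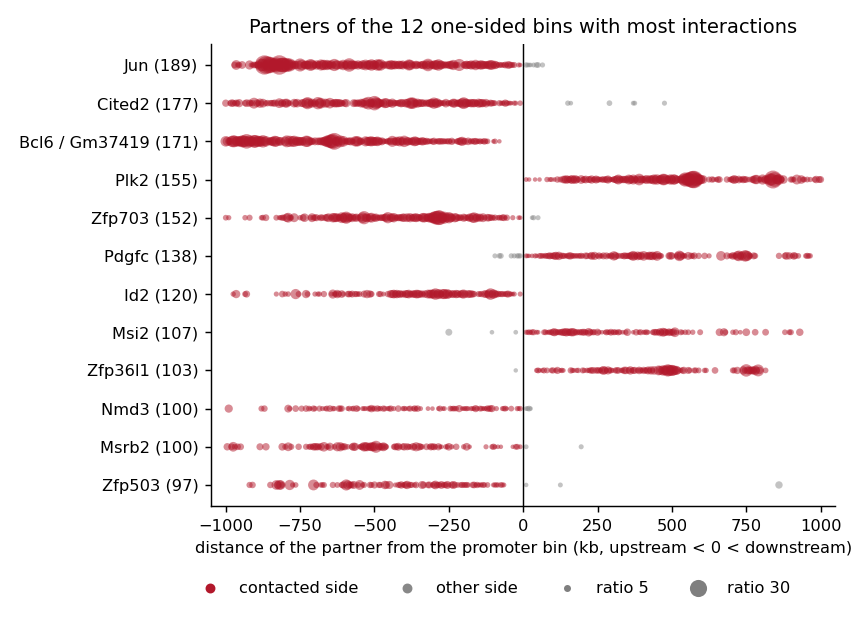
Partners of the 12 one-sided bins with most interactions (numbers in brackets) by distance in kb, upstream of the gene below 0 and downstream above 0, drawn on the strand of Bcl6 for the shared bin. Each point is 1 interaction, its area is in proportion to the ratio of observed to expected, red points are on the contacted side and grey points on the other side. Plk2, Pdgfc, Msi2 and Zfp36l1 extend downstream and the other 8 upstream.

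No preferred direction relative to the gene was detected. Of 465 one-sided bins whose TSSs were all on 1 strand, 241 (51.8%, Wilson interval 47.3 to 56.3%) had their partners downstream and 224 upstream. Over 19 chromosomes the downstream share was 1.49 points above even (SD 14.1, permutation p = 0.66, adjusted p = 0.75). In 1831 other promoter bins of a single strand, 49.3% of partners on average lay downstream (SD 22.4). The 59 bins with TSSs on both strands have no such direction.

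Bins with partners downstream belonged to longer genes. Their longest gene had a median length of 35.0 kb (quartiles 13.1 and 110 kb), against 21.3 kb (quartiles 8.94 and 43.1 kb) in bins with partners upstream. On the log scale the difference was 1.76-fold over chromosomes, higher on 14 and lower on 5 of 19 (permutation p = 0.0012, adjusted p = 0.0023). Of the downstream bins, 153 had at least 1 partner within their own gene and 38 had over 50% of partners there, whereas 88 had none. Of the upstream bins, 71 had any and 2 had over 50%. A gene's body lies mainly downstream of its TSS, and the rule sets the side. These counts and the shares by direction that follow are therefore largely fixed by the rule, and were not tested. The share of partners within the own gene averaged 19.9% in downstream and 2.47% in upstream bins. Over all one-sided bins it was 11.4%, against 10.9% in other promoter bins, and this difference did not pass (permutation p = 0.99, adjusted p = 0.99). The difference in gene length did not pass the permutation test with a limit of 80% of partners on 1 side (adjusted p = 0.14), at a ratio of at least 4 (adjusted p = 0.08), counted by clusters (adjusted p = 0.086) or with interactions of at least 50 kb (adjusted p = 0.15). With every partner on 1 side the difference was larger, 0.41 against 0.25 on the log10 scale, in 127 bins, and did not pass the permutation test (adjusted p = 0.05).

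Maml2, a co-activator of Notch signalling chosen here after its values were seen, had both patterns. It was the only 1 of 15 genes with several one-sided bins whose bins had opposite sides. Its bin at chr9:13295001-13300000 had all 46 partners downstream and the bin at an internal start, chr9:13660001-13665000, had all 23 upstream, with 84.8% and 82.6% of partners within the gene.

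Genes near the bin were sparser on the contacted side. The nearest TSS of another gene lay at a median of 80.02 kb on the contacted side and 41.9 kb on the other, over 516 bins with a gene within 2 Mb on each side. The difference came to 2.002-fold on the scale of distance plus 1 kb and was positive on all 19 chromosomes (permutation p = 2e-05, adjusted p = 0.0001). It was farther on the contacted side in 341 bins and nearer in 175. Other promoter bins had medians of 49.1 kb on the side with more partners and 40.9 kb on the side with fewer, which were not tested. The gene's own body lies on the downstream side, so the bins were also read by direction. Downstream bins had medians of 101.2 kb on the contacted and 32.5 kb on the other side. Upstream bins had 55.9 kb on the contacted and 57.0 kb on the other side.

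Like sides were therefore compared between the classes, a comparison added after that split was seen. Upstream of the gene, the nearest other TSS lay at 55.9 kb where the upstream side was contacted and at 32.5 kb where it was not (1.52-fold, 13 chromosomes higher and 6 lower, permutation p = 0.024, adjusted p = 0.042). Downstream of the gene, it lay at 101.2 kb where that side was contacted and at 57.0 kb where it was not (2.05-fold, 15 higher and 4 lower, permutation p = 0.00088, adjusted p = 0.0028). Bins with partners downstream also belonged to longer genes, with a median of 35.0 against 21.3 kb. Gene length was not held equal, so the downstream comparison cannot be told apart from it. The upstream comparison lost its call under several alternatives, with adjusted p up to 0.56, and the downstream one kept it under all 12 that were run.

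**Figure D4:**
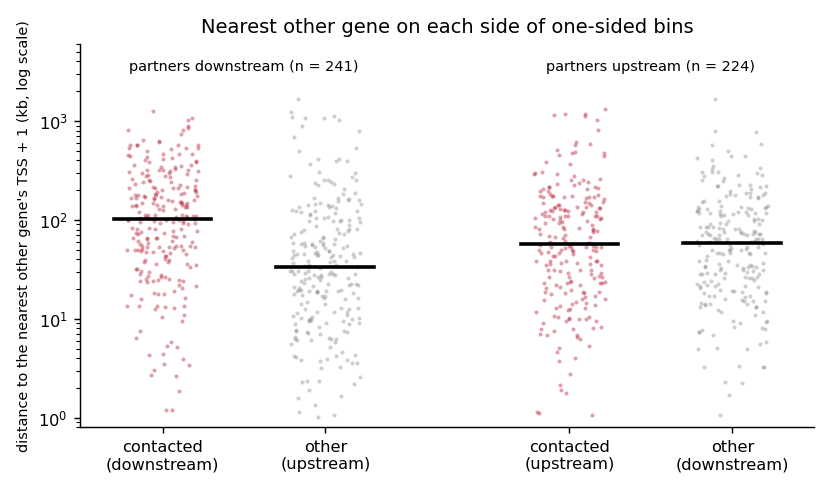
Distance from one-sided bins to the nearest TSS of another protein-coding gene, plus 1 kb, on a log scale, for 241 bins with partners downstream and 224 with partners upstream. Each point is 1 bin with a gene within 2 Mb on that side, red on the contacted side and grey on the other side, and lines are medians, here shown with 1 kb added. The medians are 101.2 and 32.5 kb in downstream bins and 55.9 and 57.0 kb in upstream bins.

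The number of neighbouring genes depended on how far was counted. Within 250 kb, one-sided bins had on average 3.35 other protein-coding genes on the contacted side and 4.20 on the other (-0.84 over chromosomes, permutation p = 0.00028, adjusted p = 0.00056). Within 500 kb the averages were 7.13 and 7.36 and did not differ by the test (-0.14, SD 1.39, permutation p = 0.67, adjusted p = 0.75). Within 1 Mb they were 14.2 and 12.3, more genes on the contacted side (2.0, permutation p = 0.0011, adjusted p = 0.0019). The direction at 250 kb and at 1 Mb was the same in downstream and in upstream bins. Downstream bins had 3.35 and 4.12 genes within 250 kb and 14.2 and 11.95 within 1 Mb, and upstream bins had 3.29 and 4.20, and 13.6 and 12.6. No gene started within 500 kb of 33 bins on the contacted side and of 25 bins on the other.

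The 3 bins with the most neighbours on the side with few or no partners lay in gene-dense regions. H2-Ab1, which encodes the beta chain of an MHC class II molecule, had 29 of 30 partners at higher coordinates, with 21 genes within 500 kb on that side and 34 on the other. Mbd3, a subunit of the NuRD chromatin complex, had 18 of 20 partners at higher coordinates, with 26 and 33 genes. Abca7, a lipid transporter, had 19 of 20 partners at higher coordinates, with 27 and 33 genes.

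The median partner of a one-sided bin lay farther away and had a higher ratio, while its farthest partner lay nearer. The farthest partner had a median distance of 750 kb in one-sided bins and 835 kb in other promoter bins, which was not tested. The median partner distance of a bin was 214 kb in one-sided bins and 175 kb in other promoter bins (49.1 kb over chromosomes, SD 53.7, longer on 15 and shorter on 3 of 19, permutation p = 0.00015, adjusted p = 0.00037). Each interaction of a bin has a different 5-kb partner bin. The shortest possible median distance is therefore longer for partners on the same side than for as many split over both sides. The rule thus favours a longer distance in one-sided bins, and the test cannot separate the difference from this. Chromosome 18, with 10 one-sided bins, had the longest median, 414 kb against 198 kb. Observed over expected had a median of 3.19 in one-sided and 2.91 in other promoter bins (0.28 over chromosomes, SD 0.14, higher on all 19, permutation p = 2e-05, adjusted p = 0.0001). Ratios rose with distance in both classes, so the test of the ratio cannot be separated from the difference in distance. The distance bands that follow were not tested. Among partners up to 100 kb the median ratio was 2.54 in one-sided and 2.54 in other promoter bins, higher in one-sided bins on 10 of 19 chromosomes. From 100 to 200 kb it was 2.96 against 2.70 (higher on 17), from 200 to 400 kb 3.21 against 2.95 (17), and from 400 to 1000 kb 3.84 against 3.68 (15). The partner distance did not pass the permutation test when only interactions of at least 50 kb were kept (19.9 kb, adjusted p = 0.11) or only ratios of at least 4 (21.7 kb, adjusted p = 0.56), whereas the ratio passed under every alternative that gives a test.

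**Figure D5:**
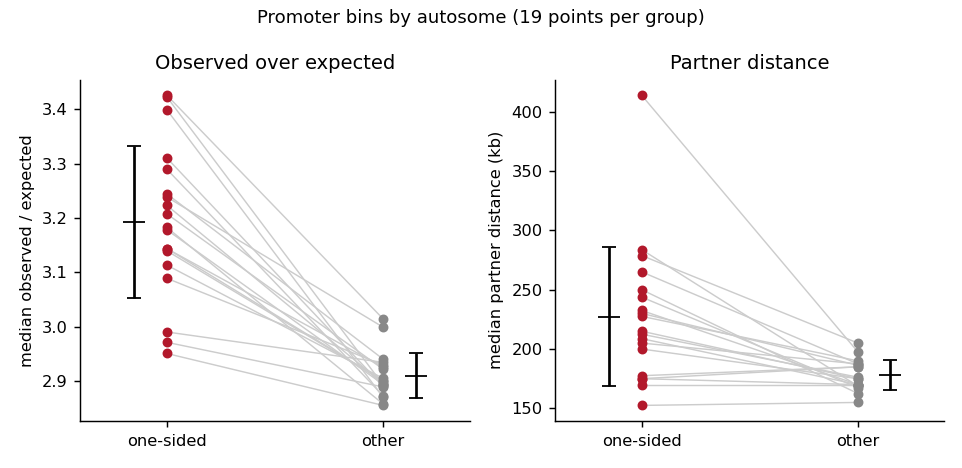
Median observed over expected (left) and median partner distance in kb (right) of one-sided and other promoter bins, 1 point per autosome, with lines joining the same autosome and the mean and SD over the 19 autosomes beside each group. Axes do not start at 0. The ratio is higher in one-sided bins on all 19 autosomes, and the distance is longer on 15, with chromosome 18 at 414 kb.

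Partners fell into fewer places. The interactions of a one-sided bin belonged to a median of 7 clusters of adjoining bin pairs, against 10 in other promoter bins, and the largest cluster held a median of 55.6% of them, against 37.9%. Clusters are not independent of the side, and these values were not tested. Partners that were promoter bins themselves made up 9.31% in one-sided and 10.0% in other promoter bins, a difference that did not pass (-0.63 points over chromosomes, SD 1.61, permutation p = 0.095, adjusted p = 0.16). It passed the permutation test with a minimum of 30 interactions (-1.56 points, adjusted p = 0.00045). Intergenic partners averaged 34.1% in one-sided bins and 32.3% in other promoter bins.

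Around most of the bins, other interactions leaned to the contacted side too. Interactions that did not involve the bin but lay wholly within 500 kb of it numbered a median of 65.5 on the contacted side and 18.5 on the other. The contacted side held more of them in 377 one-sided bins and fewer in 135. Other promoter bins had medians of 68 on the side with more partners and 48 on the side with fewer. On the other side 107 bins (20.4%) had none, against 120 other promoter bins (5.52%) on their side with fewer partners. Bins 10 to 50 kb away had, on average, 82.2% of their own interactions on the same side as the member, against 63.3% on the side with more partners around other promoter bins. These come from the same list and in part from the same clusters as the members' interactions, so they are given without a test. Interactions that crossed the bin within 500 kb had medians of 29 in one-sided and 34 in other promoter bins, and this difference did not pass (-4.37 over chromosomes, SD 9.41, permutation p = 0.061, adjusted p = 0.098). Few known bases on a side were rare, with under 80% of the adjoining 1 Mb sequenced on the contacted side of 5 bins and on the other side of 8.

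Consecutive one-sided bins were read as pairs, where both were one-sided, lay 20 kb to 1 Mb apart and had no other promoter bin with 20 or more interactions between them. Of 60 such pairs, 15 (25%) faced each other, 7 (11.7%) stood back to back and 38 had the same side. The share facing minus the share back to back was 14.4 points over 16 chromosomes (SD 53.0, permutation p = 0.30, adjusted p = 0.43). An interaction joined the bins themselves in 11 of the 15 facing pairs, 0 of the 7 back-to-back pairs and 3 of the 38 with the same side. A joining interaction counts towards the side of both facing bins, so these counts are not independent of the rule. Cd200r1, which encodes a receptor that restrains myeloid cells, and Ccdc80 were such a pair 325 kb apart, chosen after its values were seen. With a limit of 80% there were 242 pairs and the difference passed the permutation test (19.1 points, adjusted p = 0.0005), as it did with a minimum of 30 interactions (33.6 points, adjusted p = 0.039). It turned round, without passing, with interactions of at most 500 kb (-1.93 points).

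Among lists of genes, 10 of 27 bins of transcription factors of immediate response and growth were one-sided, where 19.4% of all promoter bins with 20 or more interactions were. Of these, 8 contacted upstream sequence, 1 downstream, and the bin of Bcl6 has no single direction. Besides Jun, Cited2, Bcl6 and Id2 they were bins of Klf3, Klf10, Tcf4, Etv6 and Zeb2. Macrophage identity genes had 4 of 10 bins one-sided. Zeb2, a zinc-finger transcription factor that maintains tissue macrophage identity, had all 36 partners upstream and intergenic, up to 930 kb away. Cebpb had a highest ratio of 15.6 with an intergenic partner 210 kb downstream, and Ptpn1, the nearest gene on that side, started 242 kb away. Adgre1, the gene for the macrophage marker F4/80, had 23 of 25 partners upstream.

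The list named MAP kinase and PI3-kinase signalling had 5 of 13 bins one-sided, against 19.4% of all promoter bins with 20 or more interactions. This list also holds Plk2, the polo-like kinase. After Plk2 came Map3k1, a kinase that acts above JNK, with 84 of 86 partners upstream and a highest ratio of 17.1 at 450 kb. Mapk14, the p38 alpha kinase, had 33 of 35 partners downstream, and Map2k1, the kinase MEK1, had 23 of 24 downstream with 37.5% of partners in its own gene. The fifth was Pik3ca, a catalytic subunit of PI3-kinase. Inflammatory response genes had 2 of 8 bins one-sided, both in Nfkbiz, a regulator of NF-κB target genes. Its bins had 27 and 29 partners, all downstream and intergenic, towards a region where Zpld1 was the nearest gene at 522 and 537 kb. IL-4 signalling genes had 2 of 11 (Jun and Bcl6), and none of the 3 bins of IL-4-responsive genes was one-sided.

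Housekeeping genes had 3 of 13 bins one-sided, where 19.4% of all promoter bins with 20 or more interactions were. All 3 contacted upstream sequence, and 2 of them adjoin each other. The 2 bins of Aldoa, which encodes a glycolytic aldolase, belong to annotated genes with the same symbol that start in adjacent bins, and had 33 of 34 and 43 of 45 partners upstream, of which 50% and 28.9% were promoter bins. The third, Hsp90ab1, a chaperone, had 36 of 39 partners upstream. Single members came from the lists of chemokines (Ccl9, 25 of 27 upstream), lipid and lysosome genes (Mylip, all 21 upstream) and developmental genes (Hoxb4, 49 of 50 downstream). T and B cell genes had none of 2. The lists are small, they share genes, and no list was tested.

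Of other genes chosen by name, Slc7a2, a transporter of cationic amino acids that IL-4 induces, fell short of the limit. It had 39 of 46 partners upstream (84.8%), the strongest in an intron of Mtmr7 at 250 kb with 106 observed against 6.74 expected read pairs. Maf, a transcription factor of macrophages, had 204 interactions with 173 downstream (84.8%), and its strongest partner was in an intron of Wwox at 610 kb with a ratio of 31.8. Egr2 had no bin with 20 or more interactions.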

How the data were processed

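By the study's methods, the authors mapped reads with Bowtie2 to mm10 and called interactions with MAPS at 5-kb bins on the merged reads of all 4 samples, anchored on H3K4me3 ChIP-seq peaks. The deposited list gives an observed count and an expected count per bin pair, 10 to 1000 kb apart and on autosomes, with ratios of at least 2 and adjusted p-values (FDR) of the authors below 0.01. These were used as deposited, and the authors' -log10 p per cluster, also deposited, was not used. A bin without the mark can be listed only as partner of a marked bin. Genes came from GENCODE M21 and sequence from GRCm38.

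The members, lists and tests were chosen with earlier results of these data known. The mean difference over the 19 autosomes was set against random sign changes of each autosome's value in a two-sided permutation test (100000 resamples, smallest possible p 1e-05), with Benjamini-Hochberg adjustment over 10 tests. Chromosomes are not cultures, and p measures only the spread between them. Neighbouring bins are not independent of each other. Another 8 measures were added after first values were seen, and 6 of them were tested, with adjustment over all 16 tests. The test was checked on simulated data. Named bins were the 12 with most interactions, the 5 with the highest ratio, 3 on each side of the threshold, the 4 leading members of each of 11 lists (384 entries), the 3 with most neighbours on the other side, and Slc7a2, Egr2, Cebpb, Jun and Maf, chosen by name. One bin that this rule names is not reported here. Python 3.11.15, numpy 2.4.6, pandas 2.3.3, scipy 1.17.1 and matplotlib 3.10.9 were used.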

Additional observations from a re-analysis of the deposited data

How the results depend on the processing

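No paired analysis was possible because the list pools all 4 samples, and for the same reason no replicate was left out. Under 12 alternatives each, the distance to the nearest other gene on the contacted minus the other side, observed over expected, and the downstream distance to the nearest other gene kept their direction and call. The alternatives of at least 50 kb, of at most 500 kb and of a shorter CTCF consensus were chosen after seeing the data. Lengths and gene distances below are log10 differences, and the cause of each change was not tested.

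With a minimum of 30 interactions there were 269 one-sided bins. The downstream share was -1.52 points from even, promoter partners differed by -1.56 points and passed, and facing pairs by 33.6 points and passed. No longer past the threshold were the upstream gene distance (0.159), CTCF matches within 25 kb (0.0795 per bin) and the side of partners in other promoter bins (4.24 points).

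With every partner on 1 side, 144 bins remained. Gene length (0.407), CTCF matches in the bin (27.1 points, 15 bins), the upstream gene distance (0.175) and CTCF matches within 25 kb (0.0872) lost their call, and promoter partners turned to 0.494 points. With 80% there were 1019 bins. Gene length (0.112), the upstream gene distance (0.14) and the side of partners in other promoter bins (1.8 points) lost their call, and facing pairs passed (19.1 points). The downstream share (-0.604 points), the gene count within 500 kb (0.0156) and own-gene partners (0.473 points) turned sign without passing.

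At an FDR under 1e-06 there were 234 bins. Own-gene partners (3.23 points) and crossing interactions (2.32) turned sign, the side of partners in other promoter bins lost its call (6.8 points), and the excess of other interactions on the contacted side was 9.32 and that of neighbouring bins' same-side share over 50% was 27.1 points. At a ratio of at least 4 there were 135 bins. Gene length (0.288), partner distance (21.7 kb), the upstream gene distance (0.145) and CTCF matches within 25 kb (0.118) lost their call, and the gene count passed (-1.38). The downstream share (-9.08 points), crossing interactions (1.92) and partner CTCF matches (-6.79 points) turned sign, and the 2 untested values were 7.68 interactions and 39.4 points.

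Counted by clusters, with a minimum of 3 clusters in place of 20 interactions, 1356 of 7941 bins were one-sided, so the bins tested changed along with the counting. Gene length (0.11) and the side of partners in other promoter bins (2.76 points) lost their call, crossing interactions passed (-8.1), and neighbouring bins stood at 27.2 points. The gene count (0.738) and promoter partners (3.98 points) turned sign and passed, and partner CTCF matches turned to -0.2004 points. With a TSS within 2500 bp of the bin, the downstream share was -0.662 points, promoter partners passed (-0.911 points) and the upstream gene distance did not (0.175). With 1 bin per neighbourhood, own-gene partners differed by 0.0244 points.

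With interactions of at least 50 kb, gene length (0.12), partner distance (19.9 kb) and the side of partners in other promoter bins (3.17 points) lost their call, and facing pairs passed (22.8 points). The downstream share (-3.08 points) and own-gene partners (1.73 points) turned sign. With at most 500 kb, the gene count (0.502) and facing pairs (-1.93 points) turned sign. Within 250 kb and 1 Mb the gene count differed by -0.838 and 2.0 and passed in both directions.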
